A study of Mus musculus with 16 samples.

Results

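The baseline repertoire of microRNAs (miRNAs) was described in 4 libraries, labelled Empty_Vector, out of 16 in the whole series. They were made from primary cultures of mouse forebrain neurons transduced with a lentiviral vector that was empty. The remaining 12 libraries came from neurons given a small hairpin RNA (shRNA) or versions of it with 2 or 5 point mutations, and they were not used here. Members were chosen by their treatment label alone, and the libraries are called 1 to 4 by their replicate number. The cultures came from perinatal mice, and every group of the study was transduced with a lentiviral vector, so these libraries show neurons that carry a vector and not untouched neurons. The labels give no strain, age in days, purity or time after transduction, and they do not say whether the 4 replicates came from separate cultures or animals. The spread between libraries given below may therefore be technical.

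A miRNA is a short RNA cut from a hairpin precursor, first in the nucleus by the Microprocessor complex and then in the cytoplasm by Dicer. The cut leaves a duplex whose strands come from the 5′ side (5p) and the 3′ side (3p) of the hairpin, and an Argonaute protein usually keeps one strand as the guide. The guide finds messenger RNAs mainly through its seed, bases 2 to 8 counted from the 5′ end, so names that share a seed form a family with overlapping targets. Neurons are known for high levels of miR-124, miR-9 and miR-128, and for a large group of miRNAs from the imprinted Dlk1-Dio3 region.

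The sequences of the most abundant names are shown because the counts turn on a small number of them. Of the 20 most abundant names, 19 were found in the RefSeq miRNA table for GRCm38.p6. Each is written 5′ to 3′ with the seed in capitals, in order of mean level, and 13 of the 19 begin with u.
miR-128-3p: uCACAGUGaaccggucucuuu
miR-99a-5p: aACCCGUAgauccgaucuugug
miR-9-5p: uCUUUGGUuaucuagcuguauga
let-7c-5p: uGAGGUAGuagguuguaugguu
let-7i-5p: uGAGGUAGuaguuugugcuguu
let-7f-5p: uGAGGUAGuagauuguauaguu
miR-26a-5p: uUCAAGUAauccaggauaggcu
miR-127-3p: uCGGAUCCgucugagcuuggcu
let-7a-5p: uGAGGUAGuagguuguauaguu
miR-370-3p: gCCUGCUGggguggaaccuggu
let-7g-5p: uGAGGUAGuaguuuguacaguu
miR-125b-5p: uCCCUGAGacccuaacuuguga
let-7b-5p: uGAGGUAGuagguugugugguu
miR-434-5p: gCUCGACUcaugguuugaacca
miR-148a-3p: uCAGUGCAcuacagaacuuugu
miR-129-5p: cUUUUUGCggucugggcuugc
miR-218-5p: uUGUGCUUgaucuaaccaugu
let-7d-5p: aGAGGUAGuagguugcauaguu
miR-181a-5p: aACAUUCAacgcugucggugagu

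The deposited table lists 1978 mature miRNA names. The libraries held 4893966, 10873827, 2760894 and 11139163 counts (libraries 1 to 4), and a count of 3 stood for 0.269 to 1.09 CPM, the counts per 1000000 of the library total. A total of 820 to 1022 names had a count in a library, and 820 to 846 would be expected at the depth of the shallowest one. Across all libraries 1200 names had a count, 719 had one in each library and 778 stood at 0 throughout. At a mean of 10 CPM or more there were 335 names, and they held 99.9% of all counts. Over these names the rank correlation between libraries was 0.984 to 0.994 (Spearman's rho across names, a description, with names not being independent). Every pair of libraries differed by more than counting noise (chi-square per degree of freedom 23.7 to 95.3), so no library was a copy of another.

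A small number of names made up most of the repertoire. The neuronal miR-128-3p alone held 38.1%, 39.7%, 38.2% and 38.9% of the counts of libraries 1 to 4, a mean of 38.7% ± 0.75 (SD, n = 4). The 4 values lie within 2 percentage points of each other, and their counting error was far smaller, with a Wilson 95% interval of 38.01% to 38.09% in library 1. Only 3 names made up 50% of the counts in each library, 32 to 33 made up 90% and 143 to 145 made up 99%. The 10 most abundant names held 73.4% ± 0.18, and the 20 most abundant held 84.0% ± 0.094 (SD, n = 4). The effective number of names, the number of equally abundant names with the same Shannon entropy, was 19.1 ± 0.36. The share of the leading name varied more between libraries, in percentage points, than the share of the 10 most abundant together.

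**Figure D1:**
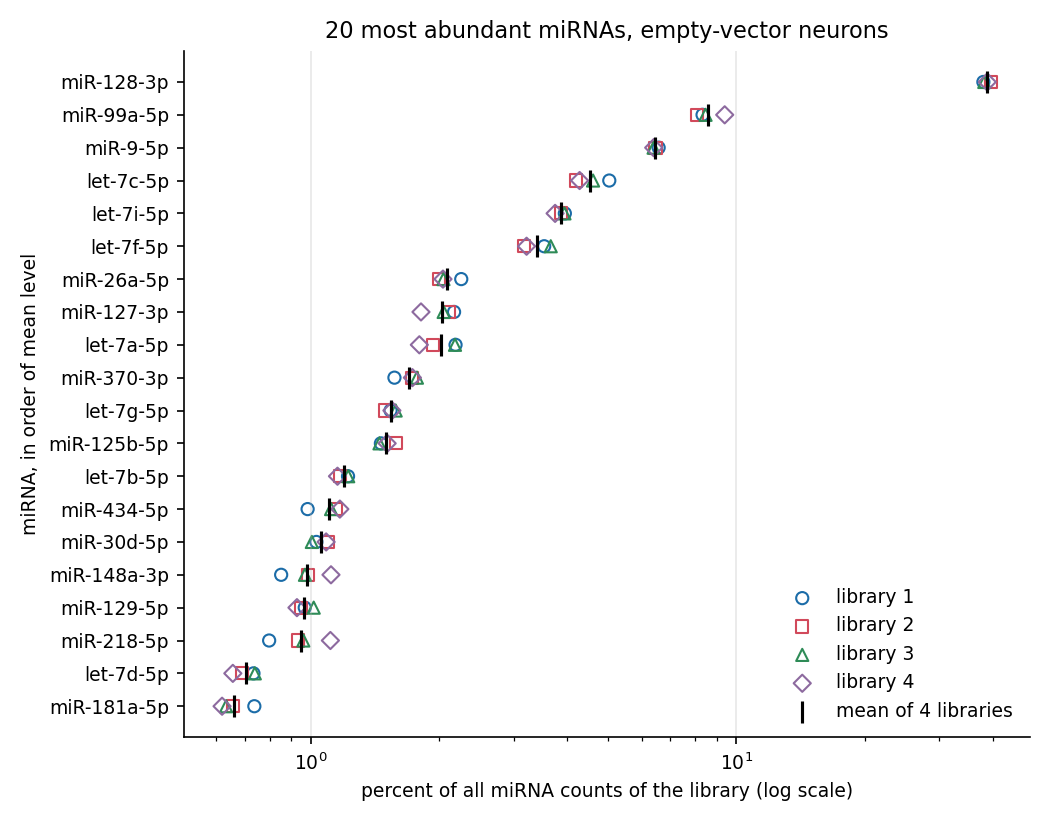
The 20 most abundant miRNAs in each of the 4 empty-vector libraries, as percent of all miRNA counts of the library on a log scale, with a bar at the mean. miR-128-3p lies between 38.1% and 39.7% in every library, and miR-99a-5p follows at 8.09% to 9.39%.

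The second name, miR-99a-5p, stood at 83268, 80936, 84619 and 93868 CPM in libraries 1 to 4, a mean of 85673 ± 5671 CPM (SD, n = 4). It was highest in library 4 and was 4.53 ± 0.31-fold below miR-128-3p. The brain-specific miR-9-5p, which acts in neural progenitors and in neurons, followed at 65655, 64531, 63888 and 63923 CPM, with the smallest relative spread of any name at or above 100 CPM (coefficient of variation 1.28%). let-7c-5p, a member of the family that restrains growth, stood at 45251 ± 3788 CPM and was highest in library 1 and lowest in library 2. Next came let-7i-5p at 38791 CPM and let-7f-5p at 33952 CPM. These 6 names kept the same order in all 4 libraries.

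Below them the order was less fixed. miR-26a-5p (20877 CPM), miR-127-3p (20372 CPM) and let-7a-5p (20260 CPM) changed places between libraries, and the mean ratio of neighbours among them was 1.03 and 1.01. miR-370-3p stood at 17010 CPM, let-7g-5p at 15420 CPM, miR-125b-5p at 15019 CPM and let-7b-5p at 11932 CPM. miR-434-5p at 11032 CPM, miR-30d-5p at 10553 CPM, miR-148a-3p at 9799 CPM, miR-129-5p at 9645 CPM and miR-218-5p at 9503 CPM also exchanged ranks. Of the 19 neighbouring pairs among the 20 most abundant names, 10 were ordered alike in every library. Of the 20 names, 19 were in the first 20 of every library, and 7 had the same rank in all 4.

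Abundance fell steeply beyond this group: 59 names reached 1000 CPM, 168 reached 100 CPM and 606 reached 1 CPM. The median level over all 1978 names was 0.0903 CPM, and that over the 335 names at or above 10 CPM was 101 CPM. All levels compare counted reads, and adapter ligation and PCR copy each sequence with its own efficiency, so a ratio between names is a ratio of reads and not of molecules.

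Grouping by seed showed 4 families that together led the repertoire. The miR-128 family has miR-128-3p as its only listed name with that seed. The let-7 family, including miR-98-5p, held 18.6%, 17.0%, 18.4% and 16.8% of the counts of libraries 1 to 4 (mean 17.7% ± 0.95, SD, n = 4), with libraries 1 and 3 above libraries 2 and 4. The miR-99/100 family held 9.45% ± 0.56, and miR-9-5p, alone in its family, held 6.45% ± 0.083. After these came miR-26 (2.13%), miR-127-3p (2.04%), miR-125 (2.02%), miR-370-3p (1.70%), miR-181 (1.41%) and miR-30 (1.36%). The 10 largest families held 83.0% ± 0.30 of all counts. Of 282 families with a name at or above 10 CPM, 250 had just one such name.

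**Figure D2:**
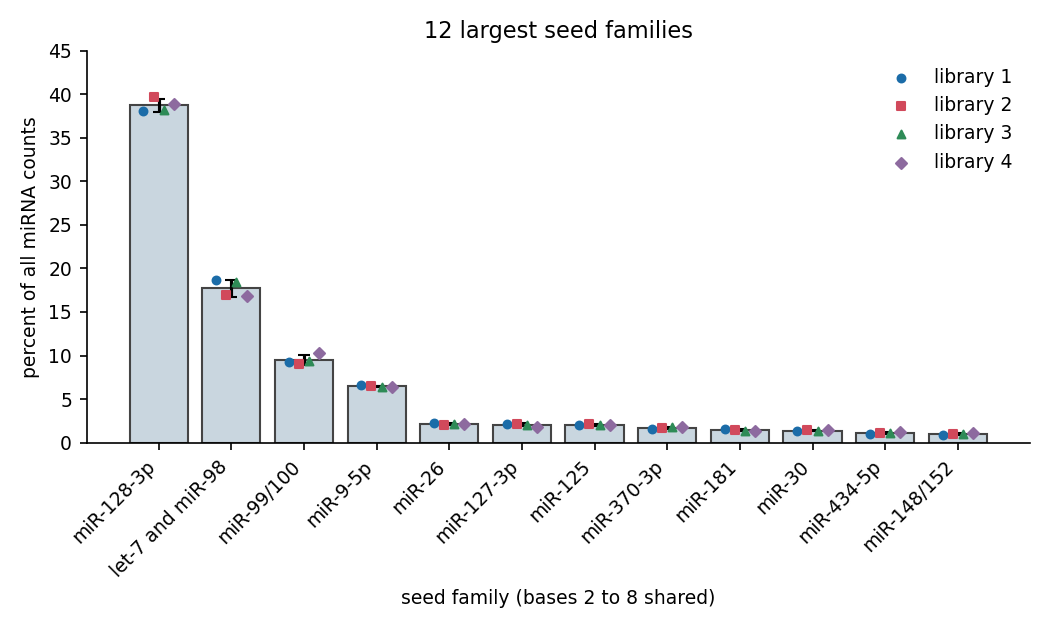
Share of all miRNA counts held by the 12 largest seed families, as the mean of 4 libraries (bar) with the SD (error bar) and each library as a point. The miR-128 family (38.7%) is followed by let-7 (17.7%), miR-99/100 (9.45%) and miR-9-5p (6.45%), and each other family holds 2.13% or less.

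The let-7 family was shared among several members. let-7c-5p gave 25.5% ± 1.02 of the family's counts, let-7i-5p 21.9% ± 0.75, let-7f-5p 19.2% ± 0.51 and let-7a-5p 11.4% ± 0.52. let-7g-5p gave 8.73%, let-7b-5p 6.75%, let-7d-5p 3.98%, let-7e-5p 1.64% and miR-98-5p 0.807%. The mature sequences differ by few bases, counted here from 1 at the 5′ end with the base of let-7a-5p first. let-7c-5p differs from let-7a-5p by A19G, let-7f-5p by G12A and let-7e-5p by U9G, while let-7i-5p differs by G12U, A17G, U18C and A19U. A read with 1 sequencing error or an altered end may be assigned among such names, and the deposited counts do not show how this was handled. let-7a-5p, let-7c-5p and let-7f-5p varied by 9.46%, 8.37% and 7.08% between libraries (coefficient of variation), against 2.42% for let-7i-5p, 2.32% for let-7g-5p and 2.98% for let-7b-5p. For let-7d-5p, let-7e-5p and miR-98-5p it was 5.59%, 6.49% and 8.49%. Whether read assignment bears on this spread was not tested. let-7j, at 616 CPM, has GAGGUAU and not GAGGUAG at bases 2 to 8 and was counted outside the family. Over the 22 bases of let-7i-5p (38791 CPM), let-7j differs from that name only at base 8. Whether reads of let-7i-5p contribute to the level of let-7j was not tested.

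In some other large families one member dominated, and in others the counts were divided. In the miR-99/100 family, miR-99a-5p gave 90.6% ± 0.67 of the counts, miR-99b-5p 4.97% and miR-100-5p 4.40%. miR-100-5p differs from miR-99a-5p by the single substitution U16A, and miR-99a-5p was 20.6 ± 1.18-fold more abundant (19.1 to 21.6 in the 4 libraries). miR-26a-5p gave 98.2% of the miR-26 family and miR-30d-5p 77.5% of the miR-30 family, ahead of miR-30c-5p (11.2%) and miR-30a-5p (8.63%). The miR-125 family was divided between miR-125b-5p (74.3%) and miR-125a-5p (25.7%). In the miR-181 family, miR-181a-5p (46.8%) and miR-181b-5p (41.0%) were close, and their ratio was 1.124, 1.142, 1.147 and 1.154 in libraries 1 to 4, with miR-181d-5p at 11.9% and miR-181c-5p at 0.236%. That ratio moved by far less than the level of either name (coefficients of variation 7.99% and 9.16%).

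Families known for growth and stress held small shares of the counts. Of 16 listed names of miR-17-92 and its paralog clusters, which promote proliferation, 6 reached 10 CPM (37.5%, beside 16.9% of all names; median 5.28 CPM, beside 0.0903 CPM), and all 16 together held 0.0802% ± 0.0067 of the counts. miR-25-3p led them at 330 ± 35 CPM, followed by miR-92a-3p at 245 CPM, miR-106b-3p at 111 CPM and miR-93-5p at 35.9 CPM. The miR-34/449 family, activated by p53, held 46.3 CPM in all (median of its 8 names 2.66 CPM), with miR-34c-5p at 19.1 CPM and miR-34a-5p at 7.33 CPM. miR-210-3p, which rises in low oxygen, stood at 22.4 ± 4.67 CPM. Of the miR-29 family, which increases as neurons mature, miR-29a-3p stood at 386 ± 25 CPM, while miR-29b-3p was at 6.54 CPM and miR-29c-3p at 3.68 CPM. The names miR-297, miR-466, miR-467 and miR-669, mostly from an intron of Sfmbt2, number 80 in the table. Of these, 3 reached 10 CPM (3.75%, beside 16.9% of all names), led by miR-669c-5p at 25.6 CPM.

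A list of 12 names made without the Microprocessor, such as mirtrons that are spliced out as short introns, held 0.203% ± 0.0018 of the counts. Its sum was 2012 to 2052 CPM in the 4 libraries (2031 ± 18 CPM). miR-1981-5p (622 ± 12 CPM), miR-320-3p (450 ± 42 CPM), miR-1839-5p (448 ± 24 CPM) and miR-484 (242 ± 31 CPM) led it. miR-320-3p was highest in library 1 and miR-484 was lowest there.

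The leading names came from few genomic places. Positions are those of RefSeq precursors on GRCm38.p6, with host genes from GENCODE M21. The miR-128-3p sequence lies in 2 precursors, Mir128-1 in an intron of R3hdm1 (chr1:128202361-128202430, plus strand) and Mir128-2 in an intron of Arpp21 (chr9:112118636-112118711, minus strand). Its own counts cannot be divided between them, but the opposite strands have separate names. miR-128-2-5p stood at 64.8, 74.3, 85.8 and 62.6 CPM in libraries 1 to 4, and miR-128-1-5p at 3.27, 4.05, 4.35 and 3.59 CPM. The opposite strand of Mir128-2 was thus 18.8 ± 1.16-fold more abundant in each library's own ratio (17.4 to 19.8), and how either strand tracks its precursor was not tested.

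Mir99a lies in an intron of the long non-coding RNA gene Mir99ahg (chr16:77598936-77599000, plus strand), followed by Mirlet7c-1 (chr16:77599657-77599750). let-7c-5p also matches Mirlet7c-2 on chromosome 15, so the pair cannot be compared as products of one transcript. miR-9-5p matches 3 precursors: Mir9-1 (chr3:88215598-88215686), Mir9-2 (chr13:83738814-83738885) and Mir9-3 (chr7:79505264-79505353), all inside long non-coding RNA genes. Mirlet7i (chr10:122985640-122985724, minus strand) lies in an exon of D630033A02Rik, an annotated transcribed pseudogene. Mirlet7g lies in an intron of Wdr82 (chr9:106178840-106178927), and Mir148a was intergenic (chr6:51269812-51269910, minus strand). In all, 27 names at or above 10 CPM matched several precursors, and such names from 1 CPM upwards held 62.0% ± 0.38 of the counts. Another 248 at or above 10 CPM matched 1 precursor each, and such names from 1 CPM upwards held 34.7% ± 0.40. Of the latter share, 17.3% came from precursors in introns, 8.86% from exons and 8.50% from precursors with no host gene on their own strand. That last group includes the names antisense to Rtl1, which held 3.92% of all counts. Some precursors were missing from those used: miR-99b-5p (4681 CPM) and miR-125b-2-3p matched none, and miR-125b-5p matched Mir125b-1 alone. The division by number of precursors is therefore approximate.

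Precursors that lie within 10 kb of the next on one strand formed 18 clusters with at least 2 single-locus names at or above 10 CPM, with 22.7% of all counts. The Mir99a cluster held 8.57% ± 0.57, nearly all from miR-99a-5p. Among names at or above 10 CPM, the ratio between the highest and the lowest name of a cluster ran from 1.19-fold (miR-17-5p over miR-20a-5p, in the Mir17 cluster) to 7155-fold (miR-99a-5p over let-7c-1-3p, in the Mir99a cluster), and these include opposite arms of hairpins. It was 599-fold in the group from Mir379 to Mir3072 and 2.36-fold between miR-183-5p and miR-182-5p. From the Mir212 and Mir132 cluster, whose products respond to neuronal activity, miR-132-3p stood at 804 ± 73 CPM, miR-132-5p at 743 ± 38 CPM, miR-212-5p at 629 ± 45 CPM and miR-212-3p at 36.3 ± 6.02 CPM. In the Mir25 cluster, miR-25-3p was 9.21 ± 0.26-fold above miR-93-5p.

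The Dlk1-Dio3 region on chromosome 12 gave 10.4% to 10.7% of the counts in each library (mean 10.5% ± 0.15, SD, n = 4). This imprinted region is transcribed from the maternal chromosome into the long RNAs Meg3, Rian and Mirg, which carry the largest miRNA group of the mouse brain. Of 111 listed names, 64 reached 10 CPM (57.7%, beside 16.9% of all names) and 8 had no count (7.21%, beside 39.3%). At 100 CPM there were 38 of the 111, beside 168 of all 1978 names. The median member stood at 21.7 CPM, beside 0.0903 CPM over all names of the table. By position, 82 names at or above 1 CPM with a RefSeq sequence and 1 matching precursor lay between Dlk1 and Dio3, all on the plus strand. They held 10.3% of the counts. Listed names that could not be placed this way, such as miR-485-5p at 580 CPM, are left out of the stretches below.

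**Figure D3:**
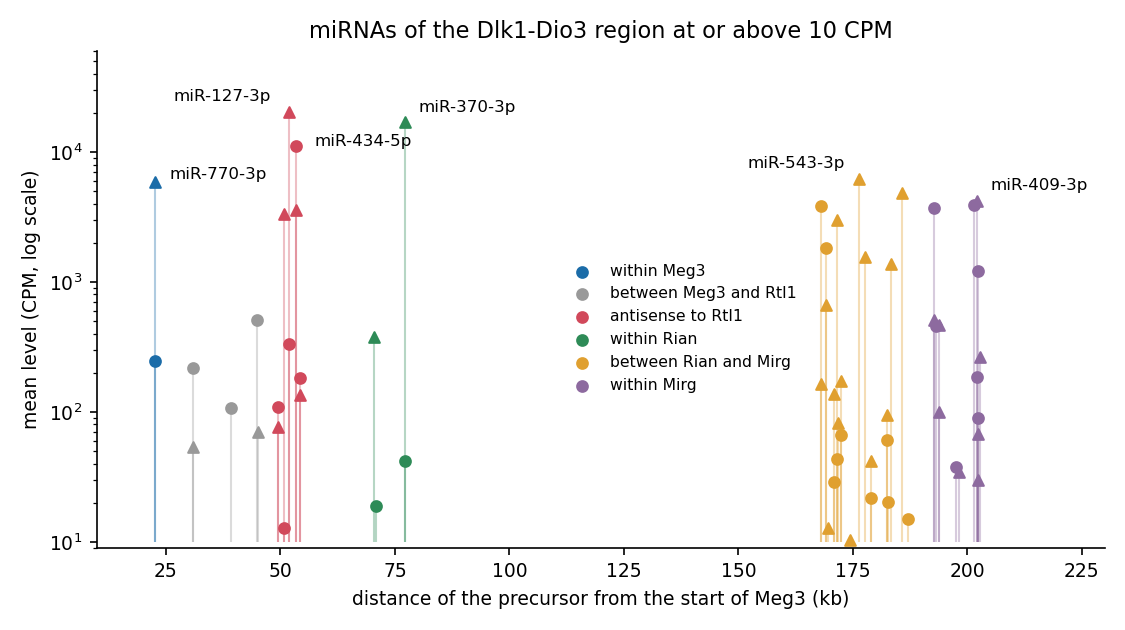
Mean level of each Dlk1-Dio3 miRNA at or above 10 CPM (log scale) against the distance of its precursor from the start of Meg3 in kb. Circles are 5p names, triangles are 3p or armless names, and colours give the host stretch. miR-127-3p (20372 CPM) and miR-370-3p (17010 CPM) are highest, and miR-543-3p leads the names between Rian and Mirg.

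The stretch antisense to Rtl1, a gene read from the other strand and targeted by these miRNAs, held more counts than any other stretch of the region. Its 10 names made up 3.92% ± 0.11 of all counts, with miR-127-3p at 21704, 21122, 20515 and 18147 CPM in libraries 1 to 4. That name was lowest in library 4, while miR-434-5p, 11032 ± 834 CPM, was lowest in library 1. miR-434-3p (3587 CPM) and miR-433-3p (3334 CPM) followed in the same stretch. Between Rian and Mirg, 33 names held 2.43% ± 0.068, led by miR-543-3p at 6214 ± 521 CPM and miR-381-3p at 4866 ± 277 CPM. Within Rian, 5 names held 1.75%, almost all from miR-370-3p, which stood at 15720, 17246, 17753 and 17322 CPM. Within Mirg, 23 names held 1.53% ± 0.027, led by miR-409-3p (4222 CPM), miR-541-5p (3879 CPM) and miR-382-5p (3715 CPM). Meg3 itself carried 0.612%, nearly all miR-770-3p (5877 ± 431.2 CPM), and the stretch between Meg3 and Rtl1 gave 0.0978%.

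Levels of listed neuronal markers are given next. The lists were chosen with earlier results of these data known, so they are no independent check of the labelled cell type. All 26 names of a neuron-enriched list reached 10 CPM, beside 16.9% of all 1978 names. At 100 CPM there were 19 of the 26, beside 168 of all names. Together the 26 held 48.1%, 49.9%, 48.4% and 49.2% of the counts (mean 48.9% ± 0.79). Without miR-128-3p the other members held 10.2% ± 0.091. The median member stood at 508 CPM, beside 0.0903 CPM over all names. In bulk RNA, fewer cells of a type and less RNA per cell cannot be told apart.

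Members of the neuron-enriched list spanned more than 4 orders of magnitude. After miR-128-3p and miR-9-5p came miR-129-5p, a regulator of synaptic scaling, at 9645 ± 377.2 CPM, and miR-218-5p, known from motor neurons, at 7980, 9316, 9602 and 11115 CPM. miR-7a-5p stood at 6107 ± 573 CPM and miR-9-3p at 4249 ± 259 CPM. miR-124-3p, a defining miRNA of neurons, stood at 1576, 1468, 1627 and 1353 CPM and ranked 50. It was 259 ± 25-fold below miR-128-3p and 43.0 ± 3.39-fold below miR-9-5p, and the order was the same in every library. miR-137-3p stood at 137 ± 14 CPM and miR-138-5p at 151 ± 13 CPM. The lowest members were miR-153-3p at 13.4 CPM and miR-592-5p at 11.98 CPM.

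Names that lean towards astroglia held 0.216% ± 0.013 of the counts. miR-22-3p led at 1017 ± 40 CPM, followed by miR-21a-5p at 669.05 ± 54 CPM, miR-27a-3p at 335 ± 100 CPM and miR-22-5p at 86.5 CPM. miR-27a-3p stood at 475, 245, 285 and 335 CPM in libraries 1 to 4, and miR-23a-3p from the same cluster at 55.4, 34.9, 39.1 and 39.0 CPM. Both were highest in library 1 and lowest in library 2, but miR-24-2-5p of that cluster stood at 38.6, 33.0, 29.0 and 41.8 CPM and was highest in library 4 and lowest in library 3. Neurons express some of these names too, so the list does not separate the cell types.

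Markers of other tissues held a small share of the counts. Lists for oligodendrocytes, microglia and leukocytes, vessels and fibroblasts, Hox clusters, erythroid cells, muscle, liver and gut, pancreas, epithelium, sensory organs, pluripotent cells and testis together comprise 87 names. They held 0.211% ± 0.0046 of the counts (2066 to 2154 CPM), the neuron-enriched list being 225- to 239-fold higher in the 4 libraries. Of the 87 names, 15 reached 10 CPM (17.2%, beside 16.9% of all 1978 names) and 22 had no count in any library (25.3%, beside 39.3%). The median member stood at 0.348 CPM, beside 0.0903 CPM over all names.

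**Figure D4:**
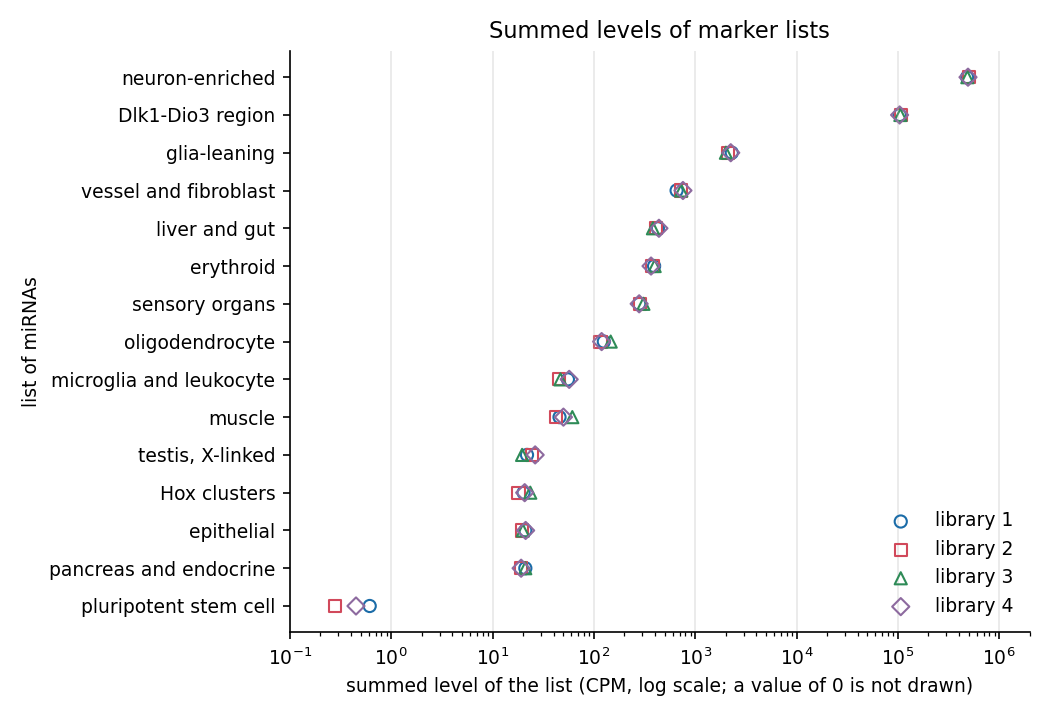
Summed level (CPM, log scale) of each list of marker miRNAs in the 4 empty-vector libraries, in order of the mean, where 0 cannot be drawn. The neuron-enriched list lies near 489082 CPM, the vessel and fibroblast list near 716 CPM, and the pluripotent list below 0.613 CPM.

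Blood and immune markers were close to absent apart from miR-146a-5p and the 5p names of miR-486. miR-223-3p, the granulocyte and monocyte marker, and miR-142a-3p, expressed across blood cells, had no count in any library, for which 3 counts allow at most 0.269 to 1.09 CPM. Of the 9 names of the microglia and leukocyte list, 4 stood at 0, as did 39.3% of all 1978 names. The sum of the list was 45.2 to 57.01 CPM. miR-146a-5p, induced in inflammation, gave almost all of it at 47.7 ± 5.60 CPM, while miR-155-5p stood at 3.19 CPM. The red cell marker miR-451a had 1, 0, 1 and 3 counts, and both strands of miR-144 had none. miR-486a-5p and miR-486b-5p stood at 186 ± 6.74 CPM. These last 2 names had the same count in every library, so the erythroid list sums to 384 CPM as listed and to 192 CPM with identical names counted once.

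Among the other lists, 3 of 5 liver and gut names and 2 of 3 sensory names reached 10 CPM, beside 16.9% of all names. The endothelial miR-126a-3p, processed from the Egfl7 gene (chr2:26591357-26591429), was the highest of the 87 names at 599, 684, 672 and 713 CPM. Pericyte and smooth muscle markers were low in the same libraries, with miR-143-3p at 29.2 ± 6.23 CPM and miR-145a-5p at 0. Of the oligodendrocyte list, miR-219a-5p had 1, 1, 0 and 0 counts and miR-338-3p stood at 5.94 ± 1.57 CPM, while miR-338-5p from the other strand of that hairpin stood at 111 ± 12 CPM. The liver and gut names miR-192-5p and miR-194-5p stood at 209 ± 15 and 148 ± 11 CPM, and the hepatocyte marker miR-122-5p at 58.2 ± 5.84 CPM. In the sensory list miR-183-5p stood at 196 ± 6.44 CPM and miR-182-5p at 83.1 ± 4.75 CPM. The muscle marker miR-1a-3p stood at 40.03 ± 6.60 CPM, the endocrine miR-375-3p at 18.6 ± 1.31 CPM, the epithelial miR-203-3p at 17.4 ± 2.17 CPM and the Hox-cluster miR-10a-5p at 10.2 ± 2.28 CPM. Of 11 pluripotent-cell names, 9 had no count, beside 39.3% of all names. The 8 testis names summed to 23.0 CPM, led by miR-881-3p at 9.18 CPM. The source of these low levels was not tested.

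Arm use was tested for the 143 hairpins whose 2 arms together reached 100 CPM, out of 802 with both arms listed. edgeR's quasi-likelihood test compared the arms with the library as a block, and an arm was called preferred at a Benjamini-Hochberg adjusted p below 0.05 and a difference of at least 4-fold. Of the 143 hairpins, 125 had a preferred arm (87.4%), 68 of them the 5p arm (47.6%) and 57 the 3p arm (39.9%). The 5p calls include miR-486a and miR-486b, which had the same counts in every library. They also include miR-1843a and miR-1843b, whose 5p counts were nearly the same. The members of each pair are not independent. By the adjusted p alone the arms differed in 140 (97.9%), and in 141 the same arm led in all 4 libraries. The median major arm held 98.6% of the hairpin's counts, and in 61 hairpins it held 99% or more. Because nearly every hairpin differs, being called sets none apart.

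**Figure D5:**
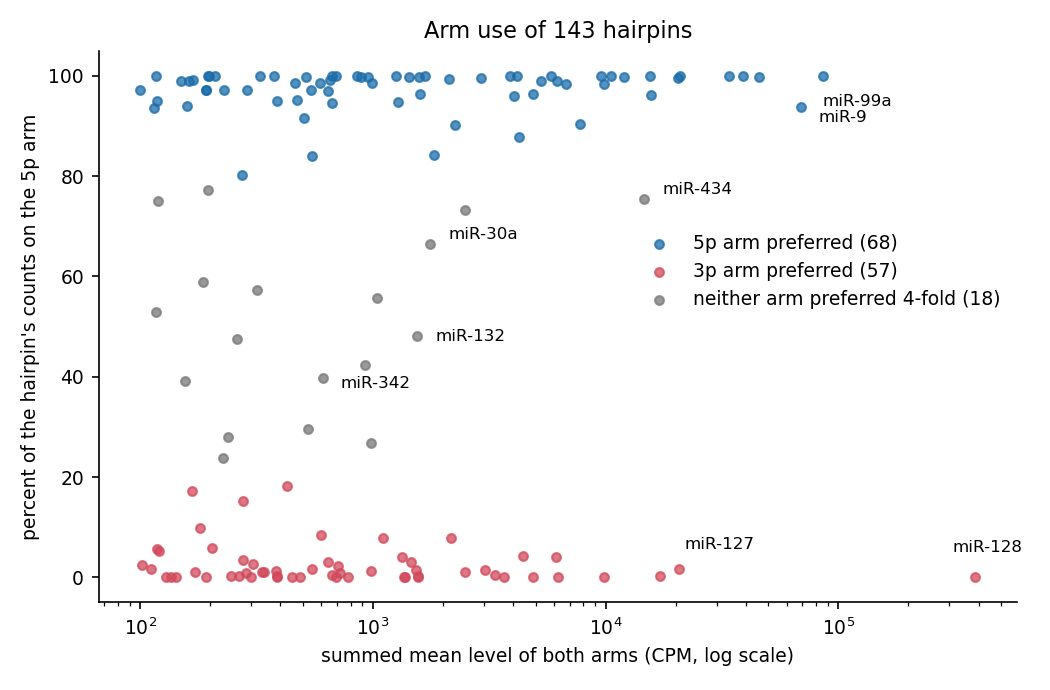
Percent of each hairpin's counts on the 5p arm against the summed level of both arms (CPM, log scale), for 143 hairpins coloured by the arm called preferred. Points crowd at 0% and 100%, while 18 hairpins, among them miR-434, miR-132 and miR-30a, lie between.

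Counted over all names, the 5p arm held 48.5% ± 0.79 and the 3p arm 51.3% ± 0.80 of the counts. Leaving out miR-128-3p, the 3p arm held 20.5% ± 0.35, so that name alone moves the split. In the miR-128 hairpins the 5p names held 0.0196% ± 0.0029, a log2 ratio of 3p to 5p of 12.34 ± 0.16 (SE; edgeR quasi-likelihood test, adjusted p = 5.16e-255). miR-9 gave 93.8% ± 0.40 on its 5p arm (94.1%, 94.0%, 93.9% and 93.2% in libraries 1 to 4), yet its 3p arm, with a seed of its own, ranked 28 among all names. All 9 let-7 hairpins tested, miR-98 included, preferred the 5p arm, beside 47.6% of the 143 hairpins tested. They ran from let-7g, with 22 counts of let-7g-3p beside 454378 of let-7g-5p, to let-7d at 90.5% ± 0.50. The names let-7a-1-3p and let-7c-2-3p had identical counts in every library, so the 3p arms of let-7a and let-7c are not separate observations.

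The strongest preferences left almost no counts on the other arm. miR-99a had 2566839 counts on the 5p arm and 19 on the 3p arm over the 4 libraries, and miR-218 had 290670 and 23. miR-192 and miR-383 had none on the 3p arm, which makes the 5p arm at least 2111-fold and 1935-fold higher against a floor of 3 counts over the group. miR-186 had 1 count on the 3p arm beside 10109. Towards the 3p arm, miR-103 and miR-3099 had none on the 5p arm and were at least 7498-fold and 4689-fold higher on the 3p arm. miR-381 (147232 counts on 3p, 7 on 5p), miR-328 (107506 and 8), miR-495 (45717 and 4) and miR-760 (39997 and 4) came next.

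A few hairpins used both arms. The miR-132 hairpin gave 43.5%, 51.0%, 48.4% and 49.5% on the 5p arm in libraries 1 to 4, a mean of 48.1% ± 3.27, and the arms did not pass the test (edgeR adjusted p = 0.209, log2 ratio 0.11 ± 0.087). In library 1 the 3p arm was higher and in library 2 the 5p arm was. The arms of miR-137, 47.5% ± 2.29 on 5p, also did not pass (edgeR adjusted p = 0.154), nor did those of miR-873a, 52.96% ± 4.77 (edgeR adjusted p = 0.0861). miR-485 (55.7% on 5p), miR-136 (57.3%) and miR-340 (42.3%) were the next closest to equal and did pass the adjusted p. The 2 strands of such a hairpin carry different seeds, as the sequences of miR-132 and miR-434 show, the latter with 75.4% ± 1.97 on 5p and the most abundant hairpin without a 4-fold preference.
miR-132-5p: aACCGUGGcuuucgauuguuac
miR-132-3p: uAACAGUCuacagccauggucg
miR-434-5p: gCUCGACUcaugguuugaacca
miR-434-3p: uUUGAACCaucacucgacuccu
miR-9-5p: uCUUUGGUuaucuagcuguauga
miR-9-3p: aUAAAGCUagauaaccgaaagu

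Among lists, 13 of 16 hairpins with a neuron-enriched name had a preferred arm, 8 on 5p and 5 on 3p, beside 87.4% of all hairpins tested (47.6% on 5p, 39.9% on 3p). Of 32 hairpins from the Dlk1-Dio3 region 24 had one, 9 on 5p and 15 on 3p, and the median log2 ratio of 3p to 5p was 0.99 there, beside -1.45 over all hairpins tested. miR-127 (98.4% on 3p) and miR-370 (99.8% on 3p) were among those on the 3p arm.

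Sequence features of the counted names followed the leading names. First bases and lengths are given over the names with a RefSeq sequence, so shares here are of those names' counts; names without one held 2.52% of all counts. Names that begin with U, the base that Argonaute proteins hold best at the 5′ end, made up 40.9% of these names and 77.3% ± 0.49 of their counts. Names with A at the first base held 14.8%, with G 4.14% and with C 3.77%. Without miR-128-3p the share with U was 62.4% ± 0.87. Names 21 bases long, including miR-128-3p, held 43.5% ± 0.80 of these counts, those of 22 bases 45.04% ± 0.75 and those of 23 bases 9.40% ± 0.15. In 86 hairpins with a preferred arm and one sequence per arm, the major arm began with U in 44 (51.2%) and the minor arm in 18 (20.9%).

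The spread between libraries was estimated from the shares and by edgeR. The median coefficient of variation was 9.0% over the 335 names at or above 10 CPM, and 6.54% over the 168 at or above 100 CPM, where counting alone gives 1.82%. For the 167 names between 10 and 100 CPM it was 12.7%, where counting alone gives a median of 8.52%. edgeR's biological coefficient of variation, its estimate of the spread beyond counting, was larger over the same 335 names. It was 15.4% as a common value and 17.0% at the median name. By the coefficient of variation of the shares, 138 of 168 names at or above 100 CPM varied by less than 10% and 4 by more than 20%. These 4 were miR-204-5p (31.6%), miR-1298-5p (30.6%), miR-27a-3p (29.9%) and miR-342-3p (24.1%), followed by miR-652-3p (15.1%) and miR-383-5p (15.0%). miR-1298-5p, from an intron of the serotonin receptor gene Htr2c (chrX:147064905-147065002), stood at 176, 248, 321 and 371 CPM in libraries 1 to 4. miR-342-3p, from an intron of Evl, stood at 500 CPM in library 1 and at 310 to 347 CPM in the others, whereas its other strand miR-342-5p stayed between 223 and 264 CPM. The steadiest names after miR-9-5p were miR-151-3p (1.35%), let-7d-3p (1.75%) and miR-24-3p (1.86%).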

How the data were processed

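Small RNA libraries were prepared from total RNA (100 ng, NEBNext kit, 15 PCR cycles, Pippin Prep size selection), per the labels' protocols. The values are raw read counts per mature miRNA, deposited by the authors with no scaling and no molecular identifiers, so intervals and floors cover counting error only. bcl2fastq 2.20.0.422, Trim Galore 0.6.0, cutadapt 1.15, Bowtie 1.1.1, edgeR and build GRCm38.p6 are named, without roles, per the submitters' processing notes. How reads that fit several names were counted is not given in the sources used here, and 8 names at or above 10 CPM form 4 pairs with identical counts.

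From these counts, shares and CPM of the unscaled library total (2760894 to 11139163 counts) were computed with Python 3.11.15, and given as mean ± SD. Arms were compared with edgeR 4.0.16 (R 4.3.3, 3 residual degrees of freedom), tested on simulated data first. The simulated data held no true ratio near the 4-fold cut-off or as large as the largest seen here. They therefore do not check the calls at those ratios. Of 1978 names, 1679 had a RefSeq sequence; the others held 2.52% of counts and formed families by name. The 20 most abundant names, the 4 most abundant of each list, list members of other tissues at or above 10 CPM, and the extremes of arm use and variation were named by rule. Members and lists were chosen with earlier results of these data known. Alternatives covered scaling, thresholds, seed length, DESeq2 1.42.0 and leaving out each library.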

Additional observations from a re-analysis of the deposited data

Results flagged for a closer look

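Of 139 levels, sums and arm shares examined, 11 had a library set apart from the other 3 (Dixon's ratio above its 95% critical value, which chance exceeds in about 1 of 20 groups). Some items were picked for their spread or arm use, and some sums contain names also examined singly. The 11 can therefore not be set against that rate. Library 3 was the one apart in 4 of them, libraries 1 and 4 in 3 each and library 2 in 1.

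In library 3, miR-204-5p, processed from an intron of Trpm3 (chr19:22750605-22750672), stood at 775 CPM and at 425 to 468 CPM in the others, while miR-204-3p from the same hairpin stood at 12.3 CPM there and at 14.2 to 16.1 CPM elsewhere. miR-183-5p stood at 206 CPM in library 3, beside 192 to 194 CPM, and the list of sensory-organ names it leads at 308 CPM, beside 280 to 284 CPM. miR-8117 had 555 counts in library 3 (201 CPM) and none in libraries 1, 2 and 4, and was named after its values were seen. Among 196 names with counts in 1 library, the next highest had 39 counts.

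In library 1, miR-181d-5p stood at 1807 CPM, beside 1617 to 1643 CPM. The family of miR-125 (seed CCCUGAG) summed to 21407 CPM in library 2, beside 19701 to 19964 CPM. The list of miR-99/100 and miR-125 names summed to 122600 CPM in library 4, beside 111501 to 112941 CPM, and miR-99a-5p was also highest there.

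Arm shares stood apart in 4 hairpins. The 5p arm of miR-485 held 57.7% in library 1, beside 54.8% to 55.2%. For miR-186 it was 99.93% in library 1, from 1 count of the 3p arm, and 100% elsewhere. For miR-495 it was 0.0222% in library 4, from 4 counts, and 0% elsewhere. For miR-30d it was 99.88% in library 4, beside 99.90%.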

How the results depend on the processing

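Without miR-128-3p in the total, the 10 most abundant names held 59.1%, the 10 largest families 74.0%, the Dlk1-Dio3 region 17.2%, names that begin with U 62.4% (of counts with a sequence) and markers of other tissues 0.345%. The last share was 0.201% with names below 10 CPM removed and 0.192% with identical names counted once, an alternative chosen after seeing the data. By position the Dlk1-Dio3 share was 10.3%. Thresholds of 1 and 100 CPM gave 606 and 168 names. The median coefficient of variation was 6.54% from 100 CPM, 9.21% with trimmed-mean scaling, and 7.72% to 9.21% leaving out each library in turn. From 10 CPM upwards 188 hairpins had a preferred arm (92 on 3p), and from 1000 CPM upwards 54 did (33 on 5p, 21 on 3p). Without the replicate block, which pairs the arms of a library, 125 hairpins were called, 68 on 5p and 57 on 3p, as many as with it; DESeq2 also called 125. Leaving out each library gave 123 to 125. The share of miR-128-3p was 38.4% to 39.0% under the 8 alternatives run for it. Depth limits names below about 1 CPM: a count of 0 allows up to 1.09 CPM in library 3.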

Other observations

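Names hosted by Htr2c were examined because miR-1298-5p varied so much, after its values were seen. The 10 names summed to 196, 282, 356 and 410.9 CPM in libraries 1 to 4. Of these sums, miR-1298-5p itself gave 176, 248, 321 and 371 CPM, so they mainly repeat that name. Of the scarcer members, miR-1264-3p stood at 4.70, 9.01, 9.78 and 10.95 CPM, and miR-448-3p at 4.09, 6.62, 7.61 and 10.6 CPM, both lowest in library 1 and resting on 20 to 122 counts a library. miR-448-5p stood at 2.25, 1.84, 1.45 and 2.60 CPM (4 to 29 counts) and was lowest in library 3, and miR-1912-3p had 1, 0, 0 and 1 counts.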
